A study of Mus musculus with 31 samples.

Results

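Undifferentiated induced pluripotent stem cells (iPSCs) of Nos3-/- mice were compared with those of control mice at day 0, before any differentiation. The comparison took every day 0 array of both genotypes, 6 Nos3-/- and 10 control, which are 16 of the 31 arrays of the study, and every probe set assigned to 1 gene symbol. The control cells were wild type CD1, and the Nos3-/- cells came from the strain B6.129P2-Nos3tm1unc/J. In both groups, tail-tip fibroblasts of adult male mice had been reprogrammed with Sendai virus, and the iPSCs were kept on inactivated mouse embryonic fibroblasts (MEFs), so each culture also held feeder cells. Because each genotype was measured in a strain of its own, genotype and strain cannot be told apart in any value given here. Whether arrays of a group stand for separate animals, clones or cultures is not stated in the labels, so p-values measure only array-to-array spread, which may be technical.

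Nos3 encodes endothelial nitric oxide synthase, which makes nitric oxide from arginine. Nitric oxide diffuses to soluble guanylate cyclase, the resulting cyclic GMP acts through protein kinase G and ion channels, and phosphodiesterases end the signal. The enzyme is best known from blood vessels and from the developing heart, where mice without it can have valve and septal defects. Mouse pluripotent cells are held in a naive state by leukaemia inhibitory factor (LIF) and a network of transcription factors around Oct4 (Pou5f1), Sox2 and Nanog. They leave it through a formative state towards epiblast and primitive streak under FGF, Wnt and Nodal signals, and cultures at day 0 usually hold some cells that have started to do so. The array reads the RNA of the whole culture, so that fewer cells of a type and less RNA per cell cannot be told apart.

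Each sample was hybridized to 1 Affymetrix mouse genome array, and its values are log2 intensities after RMA, in which a difference of 1 is a 2-fold change. Median values of the 16 arrays lay between 6.13 and 6.19, and correlations between arrays between 0.9613 and 0.9971. The Nos3-/- arrays were the more variable group. The median standard deviation (SD) of a gene was 0.216 between Nos3-/- and 0.174 between control arrays, and 66.9% of genes had the larger SD in Nos3-/-. The first principal component (39.7% of the variance) put 5 Nos3-/- arrays between -83.55 and -27.05. Nos3-/- replicate 3 was at 17.46 on it, among the control arrays, whose lowest were replicate 1 at -12.71 and replicate 9 at -1.65. Nos3-/- replicate 5 was at -83.55. These arrays stand apart, and counts that rest on them are also given without them.

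The pluripotency factor Pou5f1 was high on all 16 arrays, while the core pluripotency factors as a list were lower on Nos3-/- replicate 3. Pou5f1 had a lowest, median and highest log2 level of 11.55, 12.93 and 12.99 in Nos3-/- and 12.35, 12.54 and 12.79 in control, and Nos3-/- replicate 3 held the lowest value of all 16. The mean of the core list on that array was 8.62, against 9.41 to 10.5 in control. Esrrb was at 6.85 there, against 7.63 to 9.51 in control. The Y-linked gene Eif2s3y was between 10.08 and 10.83 in Nos3-/-, and between 10.19 and 10.85 in control apart from control replicate 4, at 7.75. The same array was lowest for the other Y-linked genes Uty (5.71, other control arrays 6.94 to 8.36) and Kdm5d (5.01, other control arrays 5.31 to 8.2), so that 1 library labelled control and male was low for all 3 Y-linked genes. Without control replicate 4, 1815 genes passed the test described next, against 2351 with it.

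The log2 levels were fitted with limma over all 34958 probe sets, and the threshold was an adjusted p of 0.05 after Benjamini-Hochberg correction. Of 18194 genes, 2351 passed (12.9%), 1334 of them higher in Nos3-/- (7.33%) and 1017 lower (5.59%). Of all probe sets, 4091 passed (11.7%). Most differences were small: 185 genes were at least 2-fold higher (1.02%) and 141 at least 2-fold lower (0.775%), and the median difference over all genes was 0.01. In 346 genes that passed (1.9%), 209 higher and 137 lower, no Nos3-/- array overlapped a control array. The number of genes passing moved with single arrays. It was 3904 without Nos3-/- replicate 3, 1153 without replicate 5, 1185 without replicate 2 and 1422 without replicate 6. With the mean log2 level of 36 feeder fibroblast markers as a covariate, it was 275, and since that mean also differs between the groups, the part of feeder cells and the part of genotype cannot be told apart in this count. Of the 157 passing genes named here, 70 (44.6%) lost the call in the omission of at least 1 array, 65 of them without Nos3-/- replicate 5 and 63 without replicate 2, against 1357 of all 2351 (57.7%). These genes are named at the end of each paragraph with their highest limma adjusted p over the 16 omissions.

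The targeted gene was read by 1 probe set. Nos3 was at 6.73, 7.06 and 7.13 (lowest, median and highest log2 level) in Nos3-/- and at 6.36, 6.62 and 7.05 in control. The groups overlapped, and the difference of 0.33 (SE 0.11) missed the threshold (limma adjusted p = 0.0589). Which part of the gene was targeted, and where the probes lie in it, are not stated by the sources used here, so this level checks nothing about the allele.

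Of 32 measured genes of the nitric oxide pathway, 1 was higher, 3 were lower and 28 did not pass, with a median of -0.12. The share that passed, 12.5%, was near the 12.9% of all genes. Among enzymes of cofactor supply, Pts, which makes a precursor of the synthase cofactor tetrahydrobiopterin, was higher by 0.66 (SE 0.15, limma adjusted p = 0.0126). Slc7a1, the transporter that brings arginine into the cell, was at 9.27, 9.7 and 10.49 (lowest, median and highest log2 level) in Nos3-/- and 10.22, 10.46 and 10.61 in control, a difference of -0.72 (SE 0.14, limma adjusted p = 0.00309). Its values overlapped only through the highest Nos3-/- array. Of the guanylate cyclases in the list, Gucy1a2, a subunit of the soluble enzyme, was lower by -0.89 (limma adjusted p = 0.0459). Npr2, a membrane guanylate cyclase that responds to natriuretic peptide and not to nitric oxide, was lower by -0.49 (limma adjusted p = 0.0431). The other synthases did not pass, with differences of 0.11 for Nos2 and -0.03 for Nos1, nor did Hsp90aa1, the chaperone that binds the endothelial enzyme (0.15). Gucy1a2 (0.13) and Npr2 (0.107) lost the call in some omissions, and without Nos3-/- replicate 2, 4, 5 or 6 the lower count was 1. In the omission of Nos3-/- replicate 3 the list had 5 higher and 8 lower.

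The 30 measured genes nearest to Nos3, 15 on each side in the gene order of GRCm38.p6 were read as well, because a targeted allele is passed on together with flanking DNA of the strain it was made in. Of these neighbours 6 were higher (20%, against 7.33% of all genes) and 4 lower (13.3%, against 5.59%), with a median of 0.03 against 0.01. The ion channel gene Kcnh2, directly before Nos3, differed by 0.38 and Atg9b, directly after it, by 0.50 (limma adjusted p = 0.0487 and 0.0333). The expressed sequence AI506816, 9 genes away, had the largest difference in size of the 30, -3.89 (limma adjusted p = 2.36e-07), with no overlap between the groups. The calls of Kcnh2 (0.123) and Atg9b (0.0909) were lost in some omissions, without replicate 2 or 5 of Nos3-/- among others.

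Olig1, a transcription factor of oligodendrocyte precursors, separated the genotypes by more than any other named gene. Its lowest, median and highest log2 levels were 9.79, 10.57 and 11.25 in Nos3-/- and 4.48, 4.72 and 5.50 in control, a difference of 5.64 (SE 0.2, 49.7-fold, limma adjusted p = 3.12e-11). Every Nos3-/- array, replicate 3 included, was far above every control array. Its neighbour Olig2, from the same family, behaved differently on replicate 3. Olig2 was at 3.46 there and between 5.83 and 8.25 on the other Nos3-/- arrays, against 3.05 to 3.5 in control (difference 3.58, SE 0.51, limma adjusted p = 0.000287). Of 28 neural ectoderm genes 3 were higher and 2 lower (17.9% passed, against 12.9% of all genes), with a median of -0.02. Besides Olig1 and Olig2, the higher one was En2, a midbrain homeobox gene (1.02), while Sox1 (-0.04) and Pax6 (0.03), which mark neural ectoderm, did not pass.

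Zfp874a encodes a zinc finger protein of the family that carries KRAB repressor domains, and Rsl1 and Zfp708 belong to the same family. Zfp874a was between 7.46 and 8.91 in Nos3-/- and between 3.58 and 4.85 in control, a difference of 4.28 (SE 0.2, limma adjusted p = 6.04e-10). Rsl1, the regulator of sex-limited liver genes, was higher by 1.99 and Zfp708 by 1.82. Like Olig1 and the other genes at either end, these 3 were chosen among genes that passed without overlap between the groups. Trim12a, a member of the TRIM5-like antiviral family, was between 6.25 and 7.00 in Nos3-/- and 2.94 and 3.61 in control (difference 3.24, SE 0.12, limma adjusted p = 5.58e-11), and a second probe set of it differed by -0.05.

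The remaining genes at the high end had varied roles, and the absence of overlap was a condition of their choice. Apoa2, an apolipoprotein of high-density lipoprotein, was between 7.31 and 9.66 in Nos3-/- against 5.08 to 6.45 in control, a difference of 2.90 (SE 0.26, limma adjusted p = 1.82e-06). Rpgrip1, a protein of the photoreceptor cilium, was higher by 2.39. Its other probe sets differed by 1.25, 0.1 and 0.01, and of these only the first passed. Dnph1, a nucleotide hydrolase, was higher by 2.19 and Tex21, a testis-expressed gene, by 2.12. Nod1, a sensor of bacterial peptidoglycan, was higher by 1.90, Tesc, a calcium-binding protein, by 1.76, and Pnma2 by 1.73. Spata5l1 (1.97) and Mettl23, a methyltransferase (1.90), complete this end with Vps52, whose probe sets disagreed. The probe set used for Vps52, a subunit of a retrograde transport complex, differed by 1.75 and the other by -0.40, and both passed, so no direction is given for it.

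At the low end, Ccnb1ip1, which encodes a ubiquitin ligase needed for meiotic crossing over, was at 4.64, 6.09 and 6.76 (lowest, median and highest log2 level) in Nos3-/- and 8.32, 9.24 and 9.92 in control. The difference was -3.29 (SE 0.29, limma adjusted p = 1.52e-06), and the absence of overlap was a condition of choice at this end too. Crxos, a homeobox gene of early embryos, was between 3.72 and 5.42 in Nos3-/- and 5.57 and 8.54 in control, a difference of -2.60 (SE 0.35, limma adjusted p = 0.000131). A second probe set of Crxos differed by -0.08 without passing. Atp10d, a lipid flippase, differed by -2.58, with a highest Nos3-/- value of 10.0 just under the lowest control value of 10.12.

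The other low genes had varied roles. Ap1s3, a subunit of a clathrin adaptor, was lower by -2.29, Tmem87a, a protein of the Golgi, by -2.01, Ctsc, a lysosomal protease, by -1.95, and Wdfy1, an endosomal protein, by -1.78. Tmem87a was the tightest of these, at 7.56 to 7.93 in Nos3-/- and 9.34 to 10.14 in control (limma adjusted p = 2.34e-09). Of the 5 probe sets of Wdfy1, 4 were lower. Cxcl11, an interferon-induced chemokine, was lower by -2.07, and Krt16, a keratin, by -1.76. Grb14, an adaptor that restrains insulin receptor signalling, differed by -1.72, and Plbd1 (-1.96), Slc35d3 (-1.89) and Ipp (-2.28) were the others. Second probe sets of Cxcl11 and Grb14 differed by -0.13 and -0.07 without passing.

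**Figure D1:**
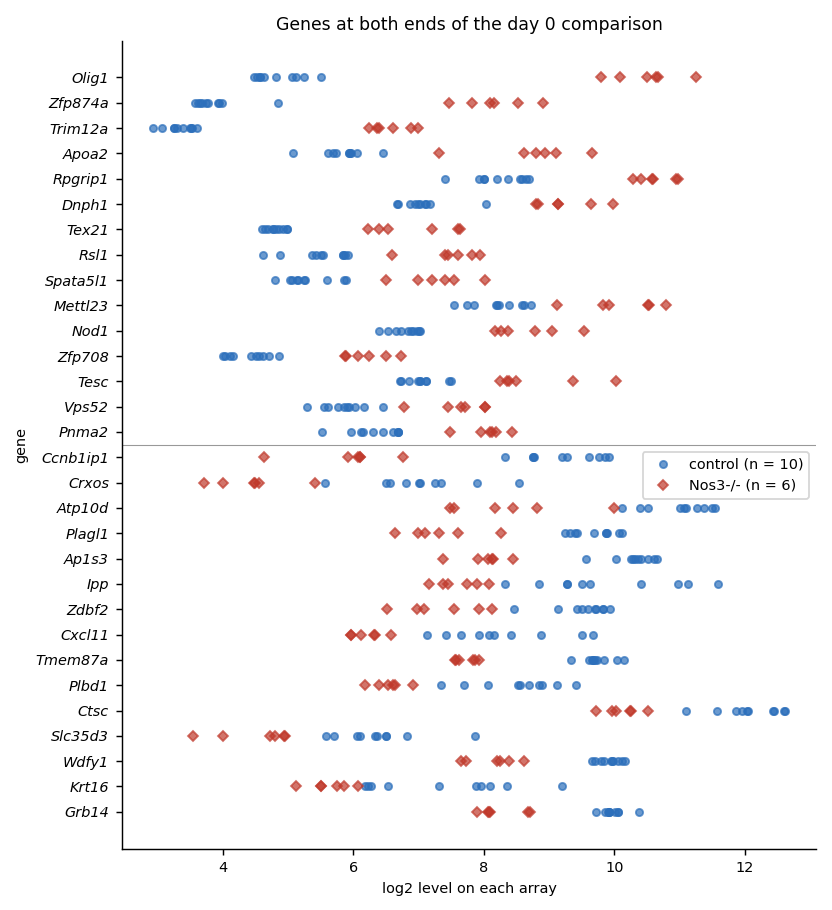
Log2 level (x axis) of the 15 genes with the highest and the 15 with the lowest difference among named genes that passed without overlap between the groups (rows), on each of 6 Nos3-/- arrays (red diamonds) and 10 control arrays (blue circles). The genes were chosen for this separation: Olig1 is at 9.79 or more on every Nos3-/- array and at 5.5 or less on every control array, and Ccnb1ip1 is at 6.76 or less and at 8.32 or more.

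These 30 genes were chosen on the day 0 arrays, and the day 11 embryoid bodies, aggregates that differentiate without added factors, gave 15 arrays that the choice had not used. In a fit of all 31 arrays, 1743 of 18194 genes differed between the genotypes at day 11 (9.58%). The variance in that fit came from the day 0 arrays too, so passing at day 11 was not independent of the choice. Of the 15 genes higher at day 0, 14 were also higher on average at day 11, 13 passed and 12 did not overlap, counting Vps52 by the probe set used. Of the 15 lower genes, all 15 were lower at day 11, 13 passed and 10 did not overlap. The share of all genes without overlap at day 11 was not computed, so the counts without overlap have nothing to be set against. Olig1 differed by 4.80, Zfp874a by 3.73 and Ccnb1ip1 by -3.64 at day 11. The 4 that did not pass at day 11 were Apoa2 (-0.14), Tesc (0.25), Slc35d3 (-0.85) and Krt16 (-0.34).

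The change in the genotype difference between days was tested itself, and 184 genes passed (1.01%), 3 of them among the 30. Plagl1, an imprinted zinc finger gene, differed by -2.37 at day 0 and -6.44 at day 11, a change of -4.07 (SE 0.5, limma adjusted p = 4.16e-05). Plagl1 reached 13.09 ± 0.81 (SD, n = 9) in control embryoid bodies and 6.65 ± 1.07 (SD, n = 6) in Nos3-/- ones. The difference of Tmem87a grew by -1.15 to -3.16, and that of Trim12a shrank by -0.74 to 2.50 (limma adjusted p = 1.15e-05 and 0.0321). For the other 27 the change did not pass, with a p of 0.0513 for Tesc.

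**Figure D2:**
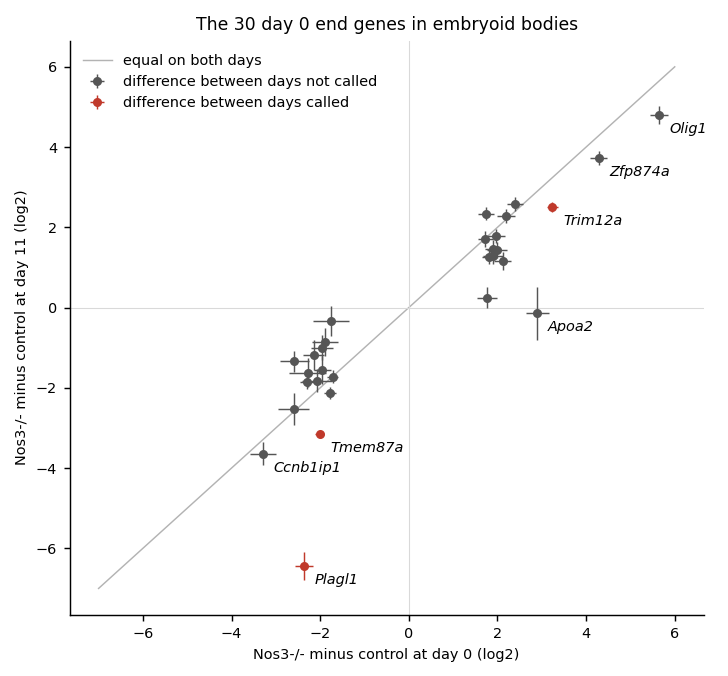
Difference between Nos3-/- and control (log2) of the 30 genes at day 0 (x axis, the values that chose them) and at day 11 (y axis), with standard errors as bars; the line marks equal differences. Red points passed the test of the difference between days: Plagl1 lies at -2.37 and -6.44, Tmem87a at -2.01 and -3.16, and Trim12a at 3.24 and 2.50.

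Some genes are known to differ between inbred mouse strains. In a list of 20 such genes, 4 were higher (20%, against 7.33% of all genes), 4 lower (20%, against 5.59%) and 12 did not pass, and 5 passed without overlap, against 1.9% of all genes (Zfp874a, Trim12a, Rsl1, Wdfy1 and Nnt). The list was drawn up with earlier results of these data known. Zfp874a, Trim12a, Rsl1 and Wdfy1 are also among the genes at either end, so these shares test nothing about strain. Nnt, the mitochondrial transhydrogenase that supplies NADPH and carries a deletion in one common B6 substrain, was at 9.29 to 10.24 in Nos3-/- and 10.34 to 10.70 in control, a difference of -0.84 (SE 0.12, limma adjusted p = 0.000257). Cwc22, a splicing factor, was lower by -0.87. Of the 346 genes that passed without overlap, 33 lay next to another in the order of 18146 placed genes, in 16 runs, and the number expected for genes placed independently was not computed. Among them were Ap1s3 and Wdfy1, Zdbf2 and Adam23 (-1.25), Apoa2 and Tomm40l (0.82), and Nod1 and Ggct (1.00). Trim12a, Trim34a (1.38) and Trim5 (-1.14) formed the longest run, of 3, and its members did not move in the same direction.

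Probe sets of a gene did not always agree. Of 1303 passing genes with several probe sets, 615 had a second one that passed in the same direction, 336 had one of opposite sign, and in 53 genes probe sets passed in both directions. Pnpt1, a mitochondrial ribonuclease, differed by 0.65 on one probe set and -2.86 on another. Smad2, a transducer of Nodal signals, differed by -1.21 and 2.34, with no overlap on either. No direction is given for these 2 genes.

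Pluripotency genes were the most raised of the 36 lists. Of 23 genes associated with pluripotency 10 were higher, none was lower and 13 did not pass (43.5% higher, against 7.33% of all genes), with a median of 0.93. Fbxo15, an F-box protein used as a reporter of the pluripotent state, was at 8.02, 11.81 and 12.66 (lowest, median and highest log2 level) in Nos3-/- and 7.39, 8.48 and 9.97 in control, a difference of 2.56 (SE 0.55, limma adjusted p = 0.00759). On 5 Nos3-/- arrays it was above every control array, and on replicate 3 below the control median. Fut9, which makes the SSEA-1 surface epitope of mouse pluripotent cells, was higher by 1.77 and Trap1a by 1.55. The growth factors Gdf3 (1.29), a Nodal relative, and Fgf4 (1.27), the FGF that pluripotent cells make themselves, were higher too, as were the surface proteins Folr1 (1.40) and Tdgf1 (0.56), the Nodal co-receptor. Dppa3, of the naive state and early germ cells, differed by 1.59 without passing (limma adjusted p = 0.0517). Some omissions ended the calls of Fgf4 (0.122) and Folr1 (0.0966).

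The core transcription factors moved less uniformly. Of 21, 2 were higher, 1 was lower and 18 did not pass (14.3% passed, against 12.9% of all genes), with a median of 0.54. Nanog was at 10.57, 12.47 and 13.34 in Nos3-/- and 10.17, 10.70 and 12.04 in control, a difference of 1.44 (SE 0.35, limma adjusted p = 0.0157), with the same 5 arrays above every control array. Prdm14, which represses differentiation and DNA methylation genes, was higher by 1.5 (limma adjusted p = 0.0489), and Stat3, the transducer of LIF, was lower by -0.49 (limma adjusted p = 0.0226). Esrrb (1.34), Sox2 (1.03), Klf4 (0.80) and Pou5f1 (0.13) did not pass. Zfp42 (Rex1), a classic marker of naive cells, had the opposite sign, -1.37, without passing (limma adjusted p = 0.137). Zfp42 was at 5.92 on Nos3-/- replicate 3, between 9.32 and 10.81 on the other Nos3-/- arrays, and between 9.32 and 12.16 in control, so that its order was not that of Nanog or Fbxo15. Prdm14 (0.121) lost its call in 14 of the 16 omissions and Stat3 (0.0632) in 2, without Nos3-/- replicate 2 and without replicate 5.

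Both counts moved with the arrays included. Without Nos3-/- replicate 3, 17 of the 23 associated genes and 12 of the 21 core factors were higher, and without replicates 3 and 5, 15 and 12. The associated count was 6 without Nos3-/- replicate 2, and the core count was 1 in 13 of the omissions. With the feeder mean as a covariate none of either list passed, and the medians were 0.20 and 0.07. The feeder mean itself was between 9.96 and 10.74 in Nos3-/- and between 10.14 and 11.56 in control.

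**Figure D3:**
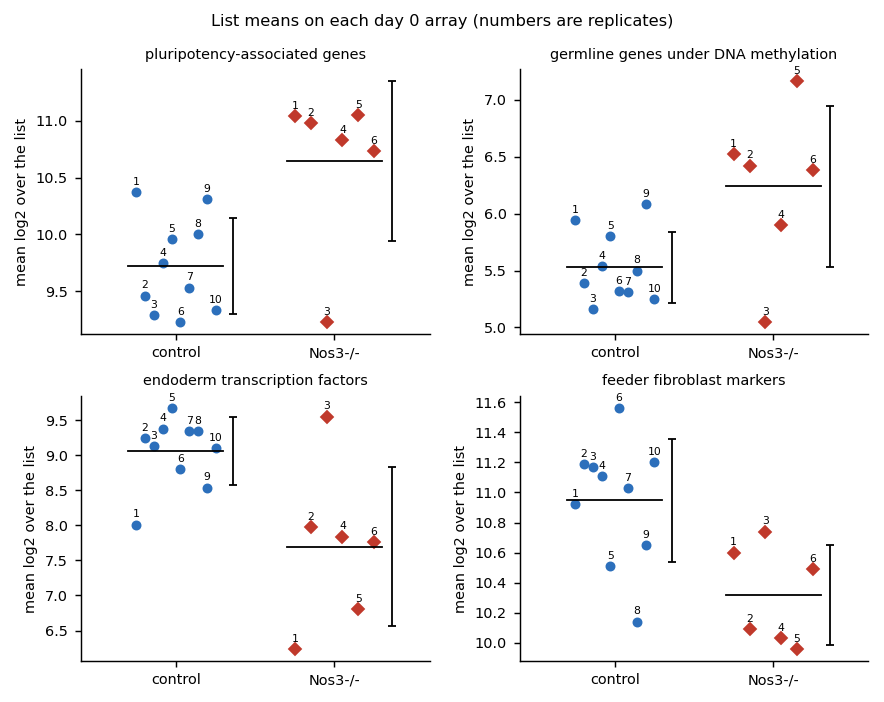
Mean log2 level over 4 gene lists on each control (blue) and Nos3-/- (red) array, numbered by replicate, with the group mean (line) and SD (bar). Nos3-/- replicate 3 is the lowest or equal lowest array for the pluripotency-associated (9.23) and the lowest for the germline list (5.05), and the highest Nos3-/- array for endoderm factors (9.55) and feeder markers (10.74).

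Germline genes that somatic cells silence by promoter methylation were raised along with these. Of 35 measured, 10 were higher, none was lower and 25 did not pass (28.6% higher, against 7.33% of all genes), with a median of 0.50. Rhox5, an X-linked homeobox gene, was at 8.22, 12.2 and 13.01 in Nos3-/- and 7.73, 8.26 and 12.3 in control, a difference of 2.60 (SE 0.74, limma adjusted p = 0.0321). Its groups overlapped at both ends, since control replicate 5 reached 12.3 and Nos3-/- replicate 3 was at 8.22. Stag3, the meiotic cohesin subunit, was between 4.71 and 8.25 in Nos3-/- and 3.60 and 6.18 in control, a difference of 2.25 (SE 0.48, limma adjusted p = 0.00734). Stk31, a kinase of germ cells, was higher by 2.14, Rhox9 by 1.74, and Hormad1, which coats unpaired meiotic chromosomes, by 1.66. Dazl, the RNA-binding protein of early germ cells, was higher by 1.34 and Sycp1, of the synaptonemal complex, by 1.09. Nos3-/- replicate 5 was the highest of all 16 arrays for Rhox5, Stag3, Stk31, Hormad1 and Dazl. Ddx4, the germ cell helicase, differed by 1.98 without passing (limma adjusted p = 0.0877). The count was 17 without Nos3-/- replicate 3, 4 without replicate 2 or without replicate 5, and 0 with the feeder covariate (median 0.16). Hormad1 (0.136), Rhox5 (0.0929), Dazl (0.0638), Stk31 (0.0577) and Sycp1 (0.0523) each lost the call in at least 1 omission, of Nos3-/- replicate 2 or 5.

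Many promoters of this list are known targets of the repressors E2F6 and MGA with MAX, which bind the letters GCGGGAA and the E-box CACGTG. The 300 bases around the start of a gene (250 before and 50 after, RefSeq, GRCm38.p6) are shown for 4 of the genes that were higher, 3 of which hold a match and 1 of which holds none, with matches on either strand in capitals. They show where the letters lie in genes that moved together.
Hormad1, chr3:95559427-95559726, plus strand: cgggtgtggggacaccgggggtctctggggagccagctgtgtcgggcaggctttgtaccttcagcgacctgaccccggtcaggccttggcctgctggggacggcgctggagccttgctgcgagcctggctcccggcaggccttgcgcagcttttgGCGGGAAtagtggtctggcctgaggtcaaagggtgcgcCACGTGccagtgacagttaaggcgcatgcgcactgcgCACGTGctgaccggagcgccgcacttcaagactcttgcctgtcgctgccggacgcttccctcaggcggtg
Stag3, chr5:138280259-138280558, plus strand: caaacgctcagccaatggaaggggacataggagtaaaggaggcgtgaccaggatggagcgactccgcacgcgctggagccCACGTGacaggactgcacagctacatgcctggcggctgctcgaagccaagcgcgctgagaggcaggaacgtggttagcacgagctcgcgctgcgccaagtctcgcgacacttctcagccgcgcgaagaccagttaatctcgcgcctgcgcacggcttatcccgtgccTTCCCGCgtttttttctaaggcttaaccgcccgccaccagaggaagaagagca
Stk31, chr6:49395289-49395588, plus strand: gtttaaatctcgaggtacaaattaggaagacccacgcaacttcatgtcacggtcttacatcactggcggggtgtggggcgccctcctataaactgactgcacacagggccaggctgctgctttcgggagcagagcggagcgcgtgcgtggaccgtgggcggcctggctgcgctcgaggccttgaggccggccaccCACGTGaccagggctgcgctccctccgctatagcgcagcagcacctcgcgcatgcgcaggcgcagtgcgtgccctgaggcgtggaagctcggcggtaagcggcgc
Dazl, chr17:50293571-50293870, minus strand: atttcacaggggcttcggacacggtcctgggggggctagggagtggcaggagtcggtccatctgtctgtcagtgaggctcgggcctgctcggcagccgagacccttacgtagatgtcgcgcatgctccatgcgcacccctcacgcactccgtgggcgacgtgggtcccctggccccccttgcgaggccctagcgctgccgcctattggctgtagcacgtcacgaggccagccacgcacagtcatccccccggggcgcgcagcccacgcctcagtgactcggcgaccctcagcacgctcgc
In Hormad1 the E-box matches begin 57 and 20 bases before the start and the E2F6 match 95 bases before it, and in Stk31 the E-box match begins 55 bases before it.

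A match is a description of the letters and shows no binding. Of the 29 germline genes with a window, 14 (48.3%) held the E-box, 5 (17.2%) held the E2F6 letters and 5 (17.2%) held both. Over all 27025 genes with a window these shares were 8.09%, 5.29% and 0.611%, and over the 14453 that were also measured 10.2%, 7.95% and 0.927%. Among the 8 of the 29 that were higher 4 held CACGTG, and among the 21 that did not pass 10 did, shares of 50% and 47.6%.

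The machinery that places and reads DNA methylation showed few differences. Of 22 genes 2 were higher, none was lower and 20 did not pass (9.09% higher, against 7.33% of all genes), with a median of 0.07. Gadd45a, a stress-induced gene also linked to demethylation, was at 9.98, 11.08 and 11.54 in Nos3-/- and 8.95, 9.84 and 10.2 in control, a difference of 1.19 (SE 0.21, limma adjusted p = 0.00178). It was the only gene of the list that also passed with the feeder covariate (1.34, limma adjusted p = 0.0177). Zfp57, which protects imprints from demethylation, was higher by 0.43. Dnmt1 (0.08), Dnmt3a (0.07), Dnmt3b (-0.42), Tet1 (0.35) and Uhrf1 (-0.11) did not pass. Of 19 genes of the repressor complexes of germline promoters 10.5% were higher, against 7.33% of all genes, and none was lower. The 2 Polycomb genes Eed (0.47) and Rnf2 (0.29) were higher, while E2f6 (-0.31), Mga (0.03) and Max (-0.12) did not pass. The methylation and repressor lists each had 4 higher without Nos3-/- replicate 3, and 1 and 0 without replicate 2. In some omissions, Nos3-/- replicate 2 or 5 among them, Zfp57 (0.117), Eed (0.116) and Rnf2 (0.0805) lost the call.

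Among imprinted genes, which are expressed from 1 parental copy, 7 of 46 were lower (15.2%, against 5.59% of all genes), none was higher and 39 did not pass, with a median of -0.17. Of the paternally expressed genes, Plagl1, a growth regulator, was at 6.64 to 8.26 in Nos3-/- and 9.25 to 10.11 in control (difference -2.37, SE 0.2, limma adjusted p = 1.09e-06), on the 1 probe set that was used of 3, the others differing by -0.15 and -0.29. Zdbf2 was at 6.52, 7.32 and 8.13 in Nos3-/- and 8.47, 9.66 and 9.94 in control, a difference of -2.15 (SE 0.24, limma adjusted p = 2.11e-05). These 2 of the 46 did not overlap between the groups, against 1.9% of all genes that passed without overlap. Of the maternally expressed genes, Rian (-1.33), Grb10, a brake on growth factor receptors (-1.23), Calcr, the calcitonin receptor (-1.14), Osbpl5 (-0.74) and Gnas (-0.41) were lower. The count was 3 without Nos3-/- replicate 2 or without replicate 5. With the feeder covariate, Plagl1 (-1.99) and Zdbf2 (-2.23) still passed. Rian (0.114), Calcr (0.102), Gnas (0.0782) and Osbpl5 (0.0664) were the genes whose calls an omission could end.

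The maternally expressed noncoding genes Meg3, Rian and Mirg share 1 cluster, which is known to be silenced in some mouse iPSC lines. Mirg fell into separate levels among the control arrays, and Rian and Meg3 were highest on the same arrays, Meg3 without a clear gap. Mirg was between 9.16 and 10.27 on control replicates 4, 5, 6, 7 and 9 and between 5.94 and 7.15 on the other 5. On the same 5 arrays Rian was between 12.26 and 12.58, against 10.16 to 11.29 on the others, and Meg3 between 11.68 and 12.37, against 8.35 to 11.01. On the 6 Nos3-/- arrays Mirg was between 5.52 and 7.11, Rian between 9.32 and 10.94 and Meg3 between 8.50 and 11.36, below every one of those 5 control arrays. Rian passed between the genotypes (limma adjusted p = 0.0404, up to 0.114 in omissions), while Mirg (-1.71) and Meg3 (-0.95) did not.

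Genes of the later, formative and primed states were not raised as a group. Of 21, 1 was higher, 3 were lower and 17 did not pass (19% passed, against 12.9% of all genes), with a median of -0.42. Tcf15, an early gene of the exit from naive pluripotency, was at 8.81, 9.56 and 9.91 in Nos3-/- and 8.17, 8.46 and 8.93 in control, a difference of 0.97 (SE 0.14, limma adjusted p = 0.000234), and it also passed with the feeder covariate (0.66, limma adjusted p = 0.0219). Cdh2, the cadherin of cells that leave the epithelium, was lower by -1.32, Sox4 by -0.64 and Nes by -0.58. Otx2 (-1.11), a driver of the formative state, and Fgf5 (-1.33), its usual marker, did not pass (limma adjusted p = 0.0586 and 0.109). Nes (0.0639) lost its call without Nos3-/- replicate 2 and without replicate 5.

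Signalling lists were read by role, from ligand to target. In the Nodal list 31.6% passed and in the BMP and TGF-beta list 16.7%, against 12.9% of all genes. The shares that were lower were 21.1% and 16.7%, against 5.59% of all genes. Of the ligands and receptors of Nodal signalling, the co-receptor Tdgf1 and the ligand Gdf3 were higher, as above, and Nodal itself did not pass (0.14). The protease Furin, which processes the ligand, was lower by -0.55. Downstream, the transcription factor Foxh1 was lower by -0.87 and the inhibitor Skil by -0.31. In this list 2 of 19 genes were higher and 4 lower, counting the probe set of Smad2 that was lower. In BMP and TGF-beta signalling 6 of 36 were lower and none was higher, with a median of -0.42. These were the receptors Bmpr2 (-0.67), Acvr1 (-0.48) and Tgfbr1 (-0.44), the common transducer Smad4 (-0.34), the secreted Fstl1 (-0.57) and the target Id1 (-0.81). The ligand Bmp4 did not differ beyond its spread (-0.06, limma adjusted p = 0.926). Of these genes Skil (0.125), Tgfbr1 (0.116), Id1 (0.103), Furin (0.0912), Bmpr2 (0.0855), Fstl1 (0.0803) and Acvr1 (0.0763) lost the call in some omissions, Nos3-/- replicates 2 and 5 in each case among them. Without Nos3-/- replicate 3 the lower count was 17 of 36 in the BMP and TGF-beta list and 7 of 19 in the Nodal list, and without replicate 2 or replicate 5 it was 1 and 2.

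In Wnt signalling 2 of 39 were higher and 5 lower, with a median of -0.29. The shares that passed were 17.9% of the Wnt, 15.4% of the FGF, 21.4% of the LIF and 10% of the Notch list, against 12.9% of all genes. The whole share of the LIF list was lower, against 5.59% of all genes. The receptors Fzd8 (-1.63) and Lrp6 (-0.76) were lower, the secreted inhibitor Frzb was lower by -1.51, and the target Sp5 by -1.60. The ligand Wnt11 was lower by -0.74. Lrp6 was between 7.93 and 8.85 in Nos3-/- and between 9.10 and 9.76 in control, with no overlap (SE 0.13, limma adjusted p = 0.0012). The inhibitors Dkk4 (0.29) and Notum (0.54) were the higher ones, and the target Axin2 did not pass (-0.24). In FGF signalling Fgf4 was higher while Fgf15 (-0.81) and the feedback inhibitors Dusp4 (-1.24) and Spry4 (-0.80) were lower, out of 26. In the LIF pathway 3 of 14 were lower, the transducers Stat3 and Jak2 (-0.51) and the target Junb (-0.67), while Socs3, another target, did not pass (0.58). The Notch ligand Jag1 was lower by -1.30 and the Notch modifier Mfng higher by 0.49, of 20. Cyp26a1, which breaks down retinoic acid, was at 5.65, 9.91 and 11.05 in Nos3-/- and 9.87, 12.28 and 12.72 in control, a difference of -2.55 (SE 0.65, limma adjusted p = 0.02), with 2 Nos3-/- arrays below every control array. With the feeder covariate none of these signalling genes passed except the lower probe set of Smad2 (-1.15). The lower counts were 15 of 39 Wnt genes and 8 of 26 FGF genes without Nos3-/- replicate 3, and 3 and 1 without replicate 5. In the LIF list, whose median was 0.03, 3 were lower and none higher with all arrays, 5 were higher without Nos3-/- replicate 3, and 1 was lower without replicate 2 or 5. The lower count of the Notch list was 5 without replicate 3. Fgf4 (0.122), Jak2 (0.118), Fgf15 (0.109), Notum (0.108), Fzd8 (0.0798), Stat3 (0.0632), Dusp4 (0.0538), Wnt11 (0.0599) and Cyp26a1 (0.0519) lost the call in at least 1 omission.

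Transcription factors of endoderm had the lowest median of all lists, -1.44. Of 17, 9 were lower (52.9%, against 5.59% of all genes), none was higher, 8 did not pass, and 0 of the 17 had a difference above 0. Sox17, which specifies endoderm, was at 4.29, 8.34 and 11.56 in Nos3-/- and 8.35, 10.84 and 11.3 in control, a difference of -2.55 (SE 0.76, limma adjusted p = 0.0396). Nos3-/- replicates 1 and 5 had the lowest values and replicate 3 the highest of all 16 arrays. Lhx1, of the organizer and anterior endoderm, had the same order, at 4.60 on replicate 1, 6.07 on replicate 5 and 12.47 on replicate 3, against 9.92 to 12.29 in control (difference -3.08, SE 0.83, limma adjusted p = 0.0267). Gsc, an organizer homeobox gene, differed by -2.25, Foxa2 by -1.91, Cxcr4, a surface marker of definitive endoderm, by -1.79, and Gata6, of primitive endoderm and heart, by -1.71. Without Nos3-/- replicate 3 the count was 12, and without replicate 2, 5 or 6 it was 1. With the feeder covariate none passed, and the median was -1.21. Cxcr4 (0.108), Sox17 (0.108), Foxa2 (0.106), Gata6 (0.0936), Gsc (0.0877) and Lhx1 (0.08) all lost the call without Nos3-/- replicate 5.

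Some genes of neighbouring fates were lower too. Of 21 primitive streak and organizer genes 7 were lower and 1 higher (33.3% lower, against 5.59% of all genes), with a median of -0.39. Eomes, a T-box factor of the streak, was lower by -1.42 and Mesp1, of cardiac mesoderm, by -0.39, while Cdx1, of posterior tissue, was higher by 0.44. Mixl1 (-1.63) and Cer1 (-1.96) did not pass (limma adjusted p = 0.0507 and 0.0631). The lower count of this list was 1 without Nos3-/- replicate 5. Of 34 effector genes of extraembryonic endoderm 7 were lower (20.6%) and 2 higher. The lower ones were mostly basement membrane genes, among them the collagen IV chains Col4a1 (-1.34) and Col4a2 (-1.15) and the laminin chains Lamb1 (-0.51) and Lamc1 (-0.45), which fibroblasts express too. The apolipoproteins Apoa2 and Apoe (0.86) were the higher ones, while the yolk-sac proteins Afp (-0.12) and Ttr (-0.19) did not pass. Of 22 trophoblast genes Elf5 (-1.44) and Eomes, already given for the streak, were lower. These were 9.09% of the list, against 5.59% of all genes that were lower, and the median of the list was -0.11. Without Nos3-/- replicate 2 or replicate 5, 1 of the 34 effectors and 0 of the 22 trophoblast genes were lower. Lamc1 (0.124), Apoe (0.122), Mesp1 (0.095), Lamb1 (0.0866), Eomes (0.0823), Col4a2 (0.0678) and Elf5 (0.0622) were not called in every omission.

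**Figure D4:**
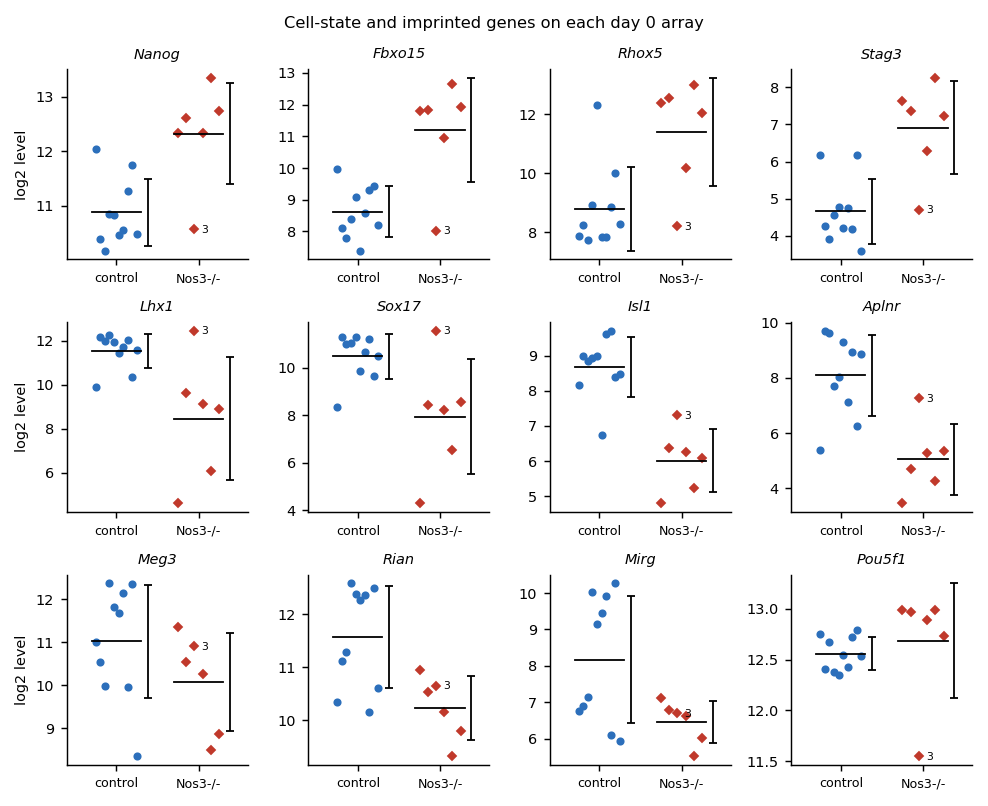
Log2 level of 12 genes on each control (blue circles) and Nos3-/- (red diamonds) array, with the group mean (line) and SD (bar); 3 marks Nos3-/- replicate 3. That array is at 10.57 for Nanog and 8.02 for Fbxo15 and at 12.47 for Lhx1 and 11.56 for Sox17, within or above the control values. The bottom row shows the separate levels of Mirg among control arrays, with Meg3 and Rian, which were highest on the same control arrays.

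Heart transcription factors were lower in part and none was higher. Of 30, 9 were lower (30%, against 5.59% of all genes) and 21 did not pass, with a median of -0.34. Isl1, of second heart field progenitors, was at 4.79, 6.18 and 7.31 in Nos3-/- and 6.73, 8.88 and 9.72 in control, a difference of -2.68 (SE 0.41, limma adjusted p = 0.000474), and only control replicate 6 fell within the Nos3-/- range. It was the only gene of this list to pass with the feeder covariate (-3.15, limma adjusted p = 0.00301). Myocd, a coactivator of muscle genes, was lower by -1.41, Irx5 by -1.04, Foxc1 by -0.83 and Gata4 by -0.81. Nkx2-5 (0.05) and Tbx5 (-0.11) did not pass. The count was 1 without Nos3-/- replicate 2 and 12 without replicate 3. Foxc1 (0.124), Irx5 (0.093), Myocd (0.0862) and Gata4 (0.0559) were the named genes that lost the call, each without replicate 2 among others.

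Of 28 contractile and channel genes of cardiomyocytes 4 were lower and 1 higher (17.9% passed, against 12.9% of all genes), with a median of -0.06. Tnni3, cardiac troponin I, was higher by 0.66, at 5.82 to 6.59 in Nos3-/- and 4.89 to 5.81 in control. Atp2a2, the calcium pump of the sarcoplasmic reticulum, was lower by -0.38, also with no overlap, and Myl7 (-1.17), Actc1 (-1.14) and Cacna1c (-0.71) were lower. Endothelial genes went both ways, 3 higher and 3 lower of 29 (20.7% passed), with a median of 0.07. Plvap, of fenestrated endothelium, was at 6.66, 7.46 and 7.84 in Nos3-/- and 6.06, 6.38 and 6.82 in control, a difference of 0.99 (SE 0.16, limma adjusted p = 0.000917). Egfl7 (0.63) and Cldn5 (0.41) were higher. Aplnr, the apelin receptor of early mesoderm, differed by -3.05 (SE 0.66, limma adjusted p = 0.00817), Flt1, a VEGF receptor, by -1.48 and Runx1, of blood formation, by -1.17. Endothelial genes such as Cdh5 (-0.11) and Kdr (-0.25) did not pass. Runx1 (0.131), Egfl7 (0.128), Actc1 (0.0856), Flt1 (0.0812) and Myl7 (0.0734) lost the call in omissions that included Nos3-/- replicates 2 and 5. The lower counts without replicate 2 were 2 for the cardiomyocyte and 1 for the endothelial list.

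Several antioxidant enzymes were raised. Of 32, 8 were higher (25%, against 7.33% of all genes), 1 was lower and 23 did not pass, with a median of 0.13. Cat, catalase, was between 11.3 and 11.58 in Nos3-/- and between 10.43 and 11.04 in control, a difference of 0.64 (SE 0.1, limma adjusted p = 0.000428). Sod1, the cytosolic superoxide dismutase, was between 12.78 and 13.32 in Nos3-/- and between 12.55 and 12.77 in control (0.39, SE 0.07, limma adjusted p = 0.0023). These 2 did not overlap, and with Nnt 3 of the 32 passed without overlap, against 1.9% of all genes. The glutathione enzymes Gpx2 (1.03), Gstm1 (0.75), Gstp1 (0.71), Gstm2 (0.69) and Gpx4 (0.62) and the peroxiredoxin Prdx3 (0.24) were the others, and the transhydrogenase Nnt, given above, was the lower one. Targets of the stress factor Nfe2l2 such as Hmox1 (-0.32), Nqo1 (0.29) and Srxn1 (-0.34) did not pass. The count was 11 without Nos3-/- replicate 3 and 6 without replicate 2, 4, 5 or 6. With the feeder covariate Cat passed, and so did Nnt. Prdx3 (0.113) and Gstm2 (0.08) lost the call in omissions of Nos3-/- replicate 2, 4, 5 or 6, Prdx3 in others too.

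Of 34 glycolysis and hypoxia genes 8.82% passed, of 22 regulators of the G1 to S transition 18.2% and of 25 p53 genes 12%, against 12.9% of all genes. Pdk1, which turns pyruvate away from mitochondria, was at 9.90, 11.57 and 12.16 in Nos3-/- and 8.44, 9.52 and 11.27 in control, a difference of 1.88 (SE 0.42, limma adjusted p = 0.0101). Ldhb, a lactate dehydrogenase subunit, was higher by 1.34 (SE 0.24), and the lactate transporter Slc16a1 lower by -0.52, while the other 31 of 34 glycolysis and hypoxia genes did not pass. Ldha (-0.17), Vegfa (-0.22) and Hif1a (-0.23) were among these. Of the regulators of the G1 to S transition, the cyclins Ccne2 (0.85) and Ccne1 (0.42) were higher and Myc (-0.66) and Rb1 (-0.25) lower, of 22. Of 25 genes of the p53 response, Gadd45a and Sesn1 (0.60) were higher and Bbc3 lower (-0.29), while Cdkn1a (-0.38) and Mdm2 (0.00) did not pass. Rb1 (0.114), Slc16a1 (0.0985), Ccne1 (0.0757), Bbc3 (0.0707) and Myc (0.0501) lost the call in at least 1 omission, Myc without Nos3-/- replicate 2.

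Feeder fibroblast markers were lower in Nos3-/- as a list. Of 36, 10 were lower (27.8%, against 5.59% of all genes), none was higher, 26 did not pass, and 0 of the 36 had a difference above 0, with a median of -0.59. Col1a1, a type I collagen chain, differed by -1.26 (SE 0.35), Col5a2 by -1.24 (SE 0.28) and Pdgfrb, a growth factor receptor of mesenchyme, by -1.13 (SE 0.29), with limma adjusted p of 0.029, 0.00977 and 0.0197. The array means of the list overlapped, at 9.96 to 10.74 in Nos3-/- and 10.14 to 11.56 in control, where replicate 8 was lowest. Without control replicate 8, 18 of the 36 were lower, and without Nos3-/- replicate 2 or 5, 1, with Col1a1 (0.0853) and Pdgfrb (0.0598) among those lost. These markers moved with the lists of endoderm, heart and signalling factors (lower) and of pluripotency and germline (higher), and their part in those results was tested only through the covariate above.

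Macrophage and interferon genes were read because cultures on feeders can hold other cell types, and which cells gave their signal was not tested. None of 16 macrophage markers passed, and their array means ran from 6.92 to 9.19 in Nos3-/- and from 6.94 to 9.15 in control. Csf1r, the macrophage growth factor receptor, was at 9.79 or more on Nos3-/- replicates 1 and 2 and on control replicates 1, 4, 7 and 9, and at 9.08 or less on the other arrays. Cxcl5, a chemokine, and Agtr2, the type 2 angiotensin receptor, were among the 8 genes of highest SD within control, and on the same 4 control arrays Agtr2 was between 6.93 and 8.12, against 3.51 to 5.36 on the others. Of 35 interferon-stimulated genes 5 were lower (14.3%, against 5.59% of all genes) and none was higher, led by Cxcl11, Usp18 (-1.05) and Xaf1 (-0.89), and the sensors Ifih1 (-0.07) and Dhx58 (0.15), which respond to viral RNA, did not pass. Of 10 class I antigen presentation genes H2-Q2 was higher (1.36) and Tap2 lower (-0.60), so that 20% passed, against 12.9% of all genes. Without Nos3-/- replicate 5, 2 interferon-stimulated genes were lower, and Usp18 (0.0562), Xaf1 (0.0728), H2-Q2 (0.0881) and Tap2 (0.057) lost the call.

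**Figure D5:**
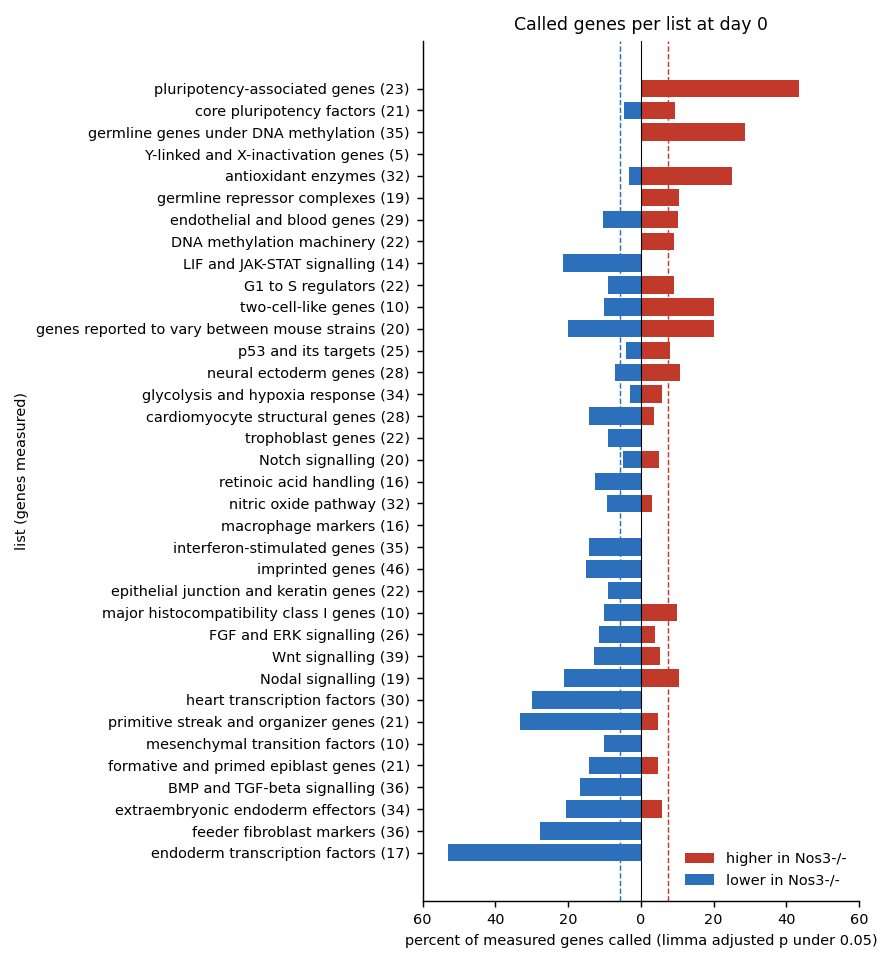
Percent of the measured genes of each of 36 lists that were higher (red, to the right) or lower (blue, to the left) in Nos3-/- at day 0, ordered by the list's median difference; dashed lines mark the shares over all genes, 7.33% and 5.59%. Endoderm factors reach 52.9% lower and pluripotency-associated genes 43.5% higher.

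The 8 genes of highest SD within Nos3-/- included several known from endoderm. Lhx1 and Sox17 were among them, with Spink1, a secreted protease inhibitor of visceral endoderm (6.23 to 13.45 over the 6 arrays, SD 2.48), and Tph1, the serotonin-making hydroxylase (4.41 to 11.59, SD 2.34). All 4 had their lowest value on replicate 1 and their highest on replicate 3. Klhl4 had the same order. Slc38a4, an imprinted amino acid transporter, was at 4.64 on replicate 3 and between 8.24 and 10.89 on the other 5, and Msln, mesothelin, was at 9.98 and 10.24 on replicates 5 and 6 and at 5.51 to 6.18 on the other 4. Within control, replicate 5 stood apart for genes of visceral and parietal endoderm, with Cubn, a nutrient receptor, at 10.63 (other control arrays 4.46 to 7.28) and Lama1, a laminin chain, at 10.72 (other control arrays 5.43 to 9.19). None of the genes given so far in this paragraph apart from Lhx1 and Sox17 passed between the genotypes. Among the 8 of highest SD within control, Krt6b, a keratin gene outside the 157 counted above, did pass. Krt6b was at 4.47 to 6.91 in Nos3-/- and 5.25 to 9.99 in control (difference -2.72, SE 0.63, limma adjusted p = 0.0123).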

How the data were processed

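RNA of 31 samples was hybridized to Affymetrix mouse genome arrays as biotinylated cRNA, per the labels' protocols, and 16 of them are day 0 iPSCs. The deposited values are log2 intensities that the authors made with RMA, per the submitters' processing notes. No software version is stated there. They were used as deposited. Of 45101 probe sets, 34958 had 1 gene symbol in the platform annotation, 932 had several and 9211 had none. Those 34958 entered 1 fit (limma 3.58.1, R 4.3.3, lmFit and eBayes, no covariate, 14 residual degrees of freedom) on the 16 arrays, with Benjamini-Hochberg adjustment over all of them. A gene was read from its probe set with the highest mean. Day 11 values came from a fit of all 31 arrays.

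On simulated data for this comparison, 68.7%, 91% and 100% of probe sets changed 1.5-, 2- and 4-fold were recovered, and 2.26% of calls were false. The simulation changed 200 of 34958 probe sets, drew each independently and gave both groups the same spread. The real groups had unequal spread and counts that moved with single arrays, so these shares do not carry over to them. The number of arrays limits the precision. The genes named were Nos3, a short list of core genes, the 15 at either end that passed without overlap, up to 3 passing genes in each direction and the gene of highest mean that did not pass from each of 36 lists, and the 8 of highest SD in each group. Of these, genes that add nothing to the text were left out, and some further members were named after their values were seen. Members and lists were chosen with earlier results of these data known. Of 950 list entries, 875 were measured. Alternatives were other array sets, normalizations, filters, probe set rules, variance models, a replicate block, a feeder covariate and omissions of arrays. Promoter windows are from RefSeq (GRCm38.p6).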

Additional observations from a re-analysis of the deposited data

Results flagged for a closer look

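A gene's highest or lowest array in a group was set apart when its gap to the next array took an unusually large share of the group's range by Dixon's criterion. Here 50 of 436 groups were set apart (218 genes in 2 groups), 27 of them on Nos3-/- replicate 3. Chance alone sets apart about 1 in 20 groups of normally distributed values. Some of these genes were named for their spread or after their values were seen, and many moved together. That rate is therefore no measure for the 50. On that array the pluripotency genes were low within Nos3-/-, with Nanog at 10.57, Pou5f1 at 11.55, Sox2 at 10.07, Klf4 at 8.87, Esrrb at 6.85, Prdm14 at 5.99, Zfp42 at 5.92 and Dppa3 at 8.25. Fbxo15 was at 8.02, Fgf4 at 8.67, Gdf3 at 8.35, Fut9 at 6.46 and Trap1a at 10.19. Also low there were Adam23 at 6.24, Eed at 11.33, Gstm2 at 7.93, H2-Q2 at 4.06, Hsp90aa1 at 13.46, Kcnh2 at 7.20 and Ldhb at 11.25. High on the same array were the mesoderm and endoderm genes Cxcr4 at 10.4, Flt1 at 10.61, Gata4 at 6.38 and Myocd at 7.52, with Id1 at 10.87, Sp5 at 7.59 and Vegfa at 9.46.

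Among control arrays, replicate 5 was high for the endoderm genes Afp (6.38), Cubn (10.63), Ttr (8.91) and Lamb1 (12.6) and for Folr1 (10.3) and Rhox5 (12.3). Control replicate 1 was high for Dnph1 (8.04) and Zfp874a (4.85) and low for Foxh1 (8.79) and Id1 (9.52). Control replicate 10 was high for Lrp6 (9.76), Msln (7.89), Nes (10.04) and Olig2 (3.5), and replicate 7 was high for Calcr (8.14) and low for Slc38a4 (7.70). Single values were set apart for Eif2s3y on control replicate 4 (7.75), Isl1 on replicate 6 (6.73) and Grb14 on replicate 9 (10.38). Within Nos3-/-, Srxn1 (9.18) and Stat3 (9.29) were high on replicate 1, Axin2 (8.36) was high on replicate 4 and Col1a1 (8.21) low on replicate 5.

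The genotype difference changed between day 0 and day 11 for 3 of the 30 genes at either end, by -4.07 for Plagl1, -1.15 for Tmem87a and -0.74 for Trim12a, with limma adjusted p of 4.16e-05, 1.15e-05 and 0.0321 for the change itself.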

How the results depend on the processing

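Leaving out each array in turn moved the number of genes that passed between 1153 and 3904, the number higher between 719 and 2077, and the number lower between 434 and 1827. With the mean of the feeder markers as a covariate 275 genes passed, 145 higher and 130 lower, and 263 of these were among the 2351. Replicate numbers did not pair the arrays: deviations of same-numbered arrays correlated between -0.372 and 0.435, and no array correlated best with its own number. With the replicate number as a block, 1209 genes passed, 621 higher and 588 lower. The other alternatives gave between 2212 and 3283 genes, the highest with array weights, and 2543 without Nos3-/- replicates 3 and 5. Averaging all probe sets of a gene turned Pnpt1 to -0.65 and Smad2 to 0.56, and without the _x_at and _s_at probe sets Vps52 differed by -0.40, since other probe sets are then read. The cause of the other changes was not tested. Of 2351 passing genes, 2088 (88.8%) did not pass with the feeder covariate, in which the group and the feeder level share part of their variance. Signal near background limits the lowest genes, and 6 against 10 arrays of unequal spread limit all counts.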
